A study of Mus musculus with 2 samples.

Results

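The 10 genes described here encode the machinery that coats, fills and empties the lipid droplet, the store of triglyceride inside a cell. They were chosen by name, with earlier results of these data known. All 10 were found through the gene identifiers of GENCODE M21 among the 55401 genes counted. They are the droplet coat proteins Plin2, Plin3, Plin4 and Plin5, the lipases Pnpla2, Lipe and Mgll, the lipase inhibitor G0s2, and Dgat1 and Dgat2, which make triglyceride. RNA was sequenced from mouse hearts (strain C57BL/6). All mice had transverse aortic constriction (TAC), an operation that narrows the aorta and makes the left ventricle pump against a higher pressure. One library came from TAC with dioscin, a steroidal saponin of plants, given for 4 weeks, and 1 library from TAC alone, as the treatment labels have it. A treatment text worded alike for both samples names dioscin without saying which of them received it. The age and sex of the mice and the number of hearts in a library are not given in the sources used here.

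Perilipins sit on the droplet surface and hold lipases off the stored fat. When lipolysis is switched on, Pnpla2 (ATGL) takes the first fatty acid from a triglyceride, Lipe (hormone-sensitive lipase) acts on the diglyceride that is left, and Mgll (monoacylglycerol lipase) releases the last. Heart muscle burns mainly fatty acids, and part of them pass through the droplet before they reach mitochondria. Several of these genes are known targets of the fatty acid receptors called PPARs.

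In the dioscin library 3 of the 10 genes were higher by at least 2-fold, and none was lower by that much. Pnpla2, the lipase of the first step, was 4.15-fold higher (95% counting interval 3.92 to 4.39), the coat gene Plin2 3.54-fold (3.14 to 4.01) and the coat gene Plin5 2.63-fold (2.33 to 2.98). The coat gene Plin4 lay just under the line with a ratio of 1.97 (1.88 to 2.05). The inhibitor G0s2 had a ratio of 1.10 (0.940 to 1.28), and Dgat1 was the 1 gene with a ratio below 1, at 0.691 (0.608 to 0.784). A gene is called higher or lower here when its level was at least 1 CPM (reads of the gene scaled to a common library size) in at least 1 library, its ratio of dioscin over TAC was at least 2 in either direction, and the exact interval of its counts excluded 1 (the size rule). Among the droplet genes 3 of 10 were higher and 0 lower, where of 15697 genes that reached 1 CPM 10.5% were higher, 8.77% lower and 19.3% either. A list of 10 is too short to tell such counts from those shares. With a fold of 1.5 in place of 2, 6 of the 10 were higher, against 20.3% of all genes, and with a fold of 3, 2 of the 10, against 4.98%. The interval lay above 1 for 8 of the 10, against 35.1% of all genes, and below 1 for 1 of the 10, against 32.1%. Whether an interval excludes 1 depends also on the number of counts. The droplet genes had at least 326 counts in each library, whereas those shares cover all genes from 1 CPM up. No share among genes of like counts was computed. The median log2 ratio was 0.71 for the droplet genes and 0.01 for all those genes. With 1 library in each group there is no measure of the spread between mice, so no test of the treatment was possible, and the intervals cover counting error only.

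**Figure D1:**
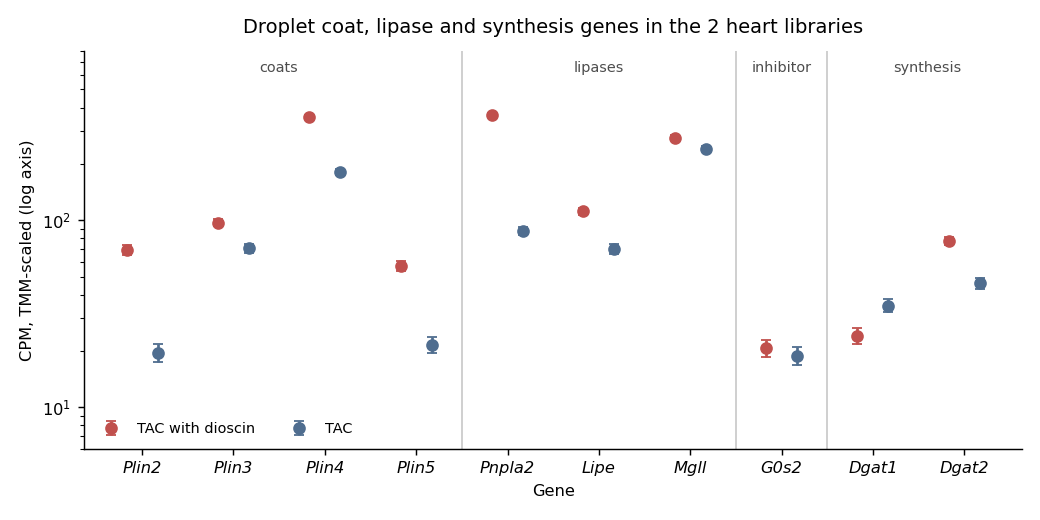
Level of each of the 10 droplet genes in the library of TAC with dioscin (red, left of each pair) and of TAC alone (blue), as TMM-scaled CPM on a log axis, with exact 95% Poisson intervals of the counts. Pnpla2, Plin2 and Plin5 are the pairs farthest apart, the 2 points of G0s2 nearly coincide, and Dgat1 is the only gene whose red point is the lower.

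The dioscin library held 17612259 counts in genes and the TAC library 16782741. Markers of heart muscle cells were abundant in both, with 9 of 9 counted, a summed level of 60656 CPM in the dioscin library and 51275 CPM in the TAC library, and 1 of 9 (Actn2) higher. Myl2 was the only one of them with a ratio below 1, at 0.785 (0.779 to 0.791). Atrial muscle markers differed far more: 6 of 7 were higher, and 1 was not at 1 CPM in either library. Their sum was 17474 CPM in the dioscin library and 609 CPM in the TAC library, where Mybphl and Bmp10 were at 0. Most of that sum was Nppa, with 12663 CPM in the dioscin library and 588 CPM in the TAC library. Of 8 mesothelial markers 7 were higher, with sums of 153 and 18.5 CPM in the dioscin and the TAC library, and Krt8 and Krt18 at 0 in the TAC library. Of all genes at 1 CPM, 10.5% were higher and 8.77% lower. Sln, Myl7 and Mybphl reached 1 CPM in the dioscin library only, as did all mesothelial markers except Wt1 and Upk3b. Such genes were taken in through the library where they were high. All results below compare these 2 libraries. In RNA from whole tissue, more cells of a kind and more RNA per cell cannot be told apart.

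Promoters of the 3 genes past the size rule are printed because all 3 passed the same threshold and because perilipin and Pnpla2 genes are textbook PPAR targets. PPARs bind a repeat of AGGTCA with 1 base between the copies. Each run below spans 250 bases before to 50 bases after a RefSeq start site (build GRCm38.p6), 5′ to 3′ on the gene's strand. Capitals mark AGGTCA on either strand, and in Plin2 also the whole of a repeat found with 2 mismatches.
Plin2 (chr4:86670010-86670309, minus strand): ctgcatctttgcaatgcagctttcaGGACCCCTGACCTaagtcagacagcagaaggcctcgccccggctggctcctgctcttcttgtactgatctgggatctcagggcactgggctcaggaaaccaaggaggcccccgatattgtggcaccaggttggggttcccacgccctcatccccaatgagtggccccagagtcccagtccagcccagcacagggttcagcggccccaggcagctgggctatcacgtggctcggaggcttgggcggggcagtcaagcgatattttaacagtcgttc
Plin5 (chr17:56117499-56117798, minus strand): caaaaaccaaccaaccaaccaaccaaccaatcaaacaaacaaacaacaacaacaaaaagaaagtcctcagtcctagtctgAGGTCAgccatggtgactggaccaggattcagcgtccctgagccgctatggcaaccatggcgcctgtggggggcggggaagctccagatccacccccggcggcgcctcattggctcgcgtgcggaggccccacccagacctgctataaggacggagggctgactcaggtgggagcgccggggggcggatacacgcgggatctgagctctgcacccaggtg
Pnpla2 (chr7:141454938-141455237, plus strand): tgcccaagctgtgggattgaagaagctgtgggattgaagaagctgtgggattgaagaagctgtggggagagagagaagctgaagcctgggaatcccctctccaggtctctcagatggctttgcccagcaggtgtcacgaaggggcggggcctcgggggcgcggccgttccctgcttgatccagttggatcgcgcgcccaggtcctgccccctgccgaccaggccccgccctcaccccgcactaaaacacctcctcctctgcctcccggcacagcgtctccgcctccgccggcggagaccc

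The RefSeq table held 11 promoters for 8 of the 10 genes. The exact repeat of AGGTCA with 1 base between stood in none of the 11, and in 0.0396% of all 32851 promoters of that length. With up to 2 mismatches it stood in 1 of the 11, that of Plin2, on the opposite strand at position -225 from the start site, and in 3.86% of all promoters. The letters AGGTCA alone stood in 3 of the 11 (the Plin2 promoter and both Plin5 promoters), and in 16.3% of all. The palindrome that the glucocorticoid receptor binds, AGAACA facing its reverse complement across 3 bases, stood in none of the 11 even with 2 mismatches, which 1.84% of all promoters held, and in 0.00913% of all without a mismatch. AGAACA alone stood in 1 promoter of Mgll and in 19.0% of all. Both strands were searched, a match to AGGTCA or AGAACA alone can lie inside a match to its repeat, and a missing match says only that the letters are not in this window.

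Plin2 and Plin5 were the coat genes that passed the size rule. Plin2 (ENSMUSG00000028494.12; chromosome 4, 86648386 to 86670060 on GRCm38, minus strand), the coat protein found in nearly every cell and broken down when it is not bound to lipid, had 1188 counts or 69.4 CPM in the dioscin library and 338 counts or 19.6 CPM in the TAC library. Its ratio exceeded that of 96.2% of genes at 1 CPM. Plin5 (ENSMUSG00000011305.11; chromosome 17, 56111601 to 56117596, minus strand), the perilipin of tissues that burn much fat, which brings droplets and mitochondria together, had 971 counts or 56.7 CPM in the dioscin library and 372 counts or 21.5 CPM in the TAC library. Both genes were thus at around 20 CPM in the TAC library and well above it in the dioscin library.

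Plin4 and Plin3 had higher levels per kilobase of exon than Plin5 and Plin2 in the TAC library and differed less between libraries. Plin4 (ENSMUSG00000002831.14 in the files and version 13 of that identifier in the annotation; chromosome 17, 56100591 to 56109803, minus strand), a coat protein of fat and muscle, had 6087 counts or 356 CPM in the dioscin library and 3122 counts or 181 CPM in the TAC library. Plin3 (ENSMUSG00000024197.10; chromosome 17, 56277476 to 56292873, minus strand), which moves from the cytosol to newly formed droplets, had 1663 counts or 97.2 CPM in the dioscin library and 1223 counts or 70.8 CPM in the TAC library, a ratio of 1.37 (1.27 to 1.48). Its interval excluded 1 but the ratio stayed under 2. Summed over the 4 coat genes, the level per kilobase of exon was 134 CPM in the dioscin library and 65.9 CPM in the TAC library, 2.04-fold higher.

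The make-up of the coat differed between the libraries. Per kilobase of exon, Plin2 made up 14.7% of the summed coat level in the dioscin library and 8.46% in the TAC library, and Plin3 19.1% and 28.4%. Plin4 stayed the largest part, with 45.9% in the dioscin library and 47.5% in the TAC library, and Plin5 had 20.3% and 15.7%. With the longest transcript as the length, a choice added after seeing the data, the share of Plin2 was 23.9% in the dioscin library and 14.4% in the TAC library, still the larger in the dioscin library. The ratio of Plin4 to Plin2 per kilobase, which does not depend on how the libraries are scaled, was 3.11 (2.93 to 3.32) in the dioscin library and 5.62 (5.02 to 6.30) in the TAC library. The ratio of Plin5 to Plin2 was 1.38 (1.26 to 1.498) in the dioscin library and 1.85 (1.59 to 2.15) in the TAC library. Neither pair of intervals overlapped. Which coat gene was the more abundant depended on the length: with the longest transcript the ratio of Plin5 to Plin2 was 0.777 in the dioscin library and 1.05 in the TAC library, and that of Plin4 to Plin2 was 1.68 and 3.03. The difference between libraries does not depend on it, since the same length divides both.

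Plin4 carries a repeat that could bear on its level. In its longest transcript, bases 99 apart were equal in 49.7% of positions, against a median of 25.4% over spacings from 30 to 150, and 17.4% of its stretches of 50 bases occurred more than once in the transcript, whereas none did in the longest transcripts of the other 9 genes. The most common spacing of these repeated stretches was 495 bases. Reads that lie wholly in such a stretch can align in several places and may then be left out of the gene counts. The effect on the level of Plin4 was not tested. The 3 successive units of exon 5 with most bases in common are shown, 5′ to 3′ on the minus strand of GRCm38, with capitals where a unit differs from the first.
Unit 1 (chr17:56106304-56106402): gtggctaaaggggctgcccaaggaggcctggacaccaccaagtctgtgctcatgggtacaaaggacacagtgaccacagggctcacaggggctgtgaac
Unit 2 (chr17:56106205-56106303): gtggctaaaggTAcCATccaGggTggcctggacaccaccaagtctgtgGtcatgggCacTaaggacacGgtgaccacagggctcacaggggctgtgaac
Unit 3 (chr17:56106106-56106204): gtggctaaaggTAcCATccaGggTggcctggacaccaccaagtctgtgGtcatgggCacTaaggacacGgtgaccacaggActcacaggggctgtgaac
Unit 2 equals unit 1 in 88 and unit 3 equals unit 1 in 87 of 99 bases.

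**Figure D2:**
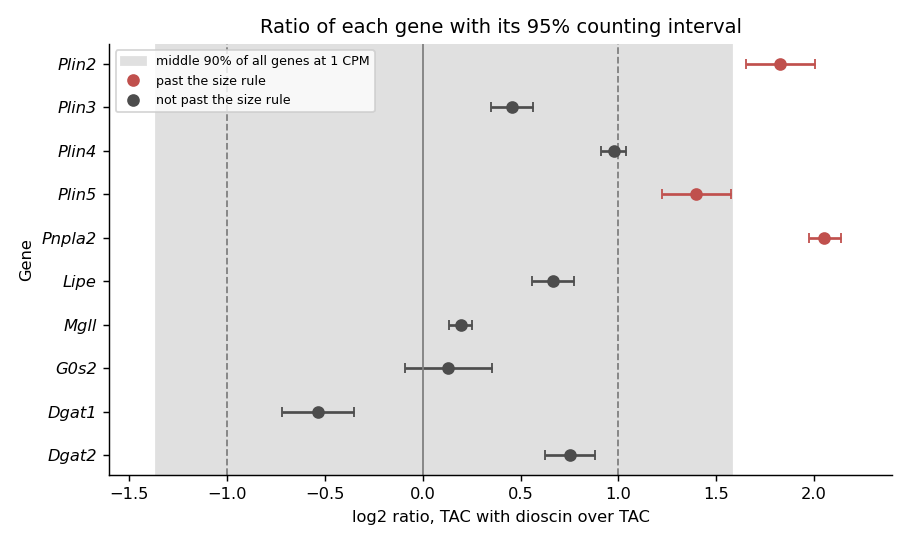
log2 ratio of TAC with dioscin over TAC for each gene, with its exact 95% counting interval; dashed lines mark a 2-fold difference and the grey band holds the middle 90% of all genes at 1 CPM, from -1.36 to 1.58. Pnpla2 at 2.05 and Plin2 at 1.82 lie beyond the band, Plin5 at 1.40 lies inside it but past the dashed line, and Plin4 at 0.98 sits on that line.

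Among the lipases, the difference was largest at the first step. Pnpla2 (ENSMUSG00000025509.15; chromosome 7, 141455198 to 141460743, plus strand) had 6214 counts or 363 CPM in the dioscin library and 1511 counts or 87.5 CPM in the TAC library, and its ratio exceeded that of 97.1% of genes at 1 CPM. Lipe (ENSMUSG00000003123.15; chromosome 7, 25379527 to 25398710, minus strand) had 1906 counts or 111 CPM in the dioscin library and 1212 counts or 70.2 CPM in the TAC library, a ratio of 1.59 (1.48 to 1.71). Mgll (ENSMUSG00000033174.17; chromosome 6, 88724412 to 88828360, plus strand) had 4729 counts or 276 CPM in the dioscin library and 4171 counts or 242 CPM in the TAC library, a ratio of 1.14 (1.10 to 1.19). The ratio was thus smaller for each later lipase of the chain, and only that of Pnpla2 passed the size rule.

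The order of the lipase genes by level differed between the libraries. Per kilobase of exon, Pnpla2 took 62.1% of the summed lipase level in the dioscin library and 32.7% in the TAC library, whereas Mgll took 28.1% in the dioscin library and 53.8% in the TAC library. Lipe took 9.77% and 13.5% in the same order. The ratio of Mgll to Pnpla2 per kilobase was 0.453 (0.436 to 0.470) in the dioscin library and 1.64 (1.55 to 1.74) in the TAC library, so the more abundant of the pair was Pnpla2 in the dioscin library and Mgll in the TAC library.

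G0s2, a small protein that binds Pnpla2 and blocks it, had nearly the same level in both libraries. G0s2 (ENSMUSG00000009633.3; chromosome 1, 193272161 to 193273217, minus strand) had 354 counts or 20.7 CPM in the dioscin library and 326 counts or 18.9 CPM in the TAC library, and it was the 1 droplet gene whose interval held 1. The ratio of G0s2 to Pnpla2 per kilobase was 0.198 (0.177 to 0.220) in the dioscin library and 0.748 (0.662 to 0.844) in the TAC library, 3.79-fold lower in the dioscin library. Abhd5 (CGI-58), the protein that activates Pnpla2, was looked at for the same reason after the values were seen and had 374 counts in the dioscin library and 294 in the TAC library, a ratio of 1.28 (1.10 to 1.5004). Of these partners, the transcript of the lipase was the 1 that passed the size rule.

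The enzymes of the last step of triglyceride synthesis had ratios on opposite sides of 1, though neither passed the size rule. Dgat2 (ENSMUSG00000030747.5; chromosome 7, 99153658 to 99182719, minus strand), the form that mainly uses newly made fatty acids, had 1325 counts or 77.4 CPM in the dioscin library and 794 counts or 46.0 CPM in the TAC library, a ratio of 1.68 (1.54 to 1.84). Dgat1 (ENSMUSG00000022555.12; chromosome 15, 76502015 to 76511953, minus strand), the form that also re-esterifies fatty acids released by lipolysis, had 413 counts or 24.1 CPM in the dioscin library and 603 counts or 34.9 CPM in the TAC library. The ratio of Dgat2 to Dgat1 per kilobase was 3.18 (2.85 to 3.56) in the dioscin library and 1.31 (1.17 to 1.45) in the TAC library. Dgat2 made up 76.1% of the pair in the dioscin library and 56.6% in the TAC library.

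**Figure D3:**
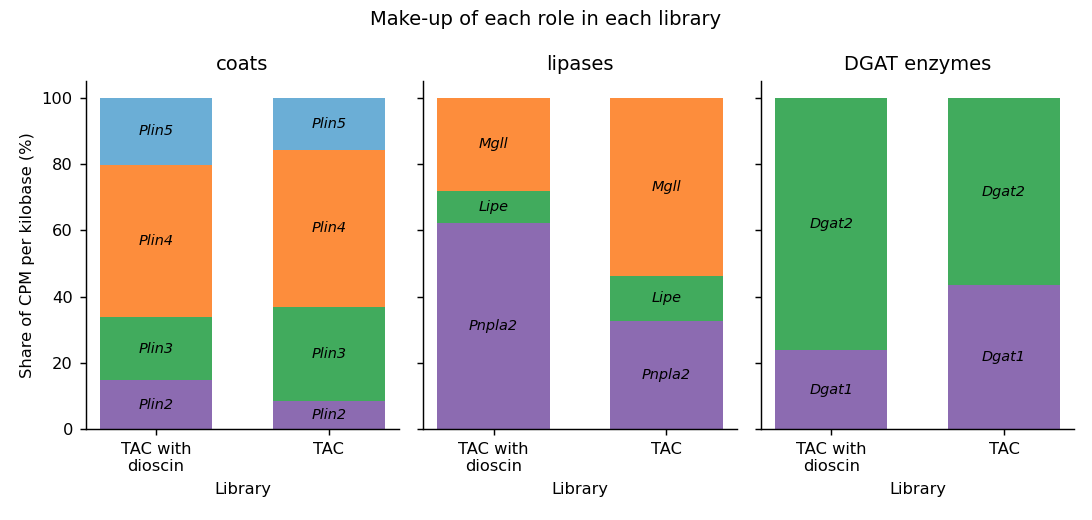
Share of each gene in the summed CPM per kilobase of its role, for coats, lipases and DGAT enzymes, with TAC with dioscin as the left and TAC as the right bar of each panel. Pnpla2 fills 62.1% of the lipase bar in the dioscin library and 32.7% in the TAC library, and Dgat2 76.1% and 56.6% of the DGAT bar.

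By level per kilobase the order of the 10 genes differed between libraries. In the dioscin library Pnpla2 came first with 120 CPM per kilobase, followed by Plin4 with 61.6 and Mgll with 54.4. Plin5, Plin3, Dgat2 and G0s2 followed with 27.2, 25.7, 25.1 and 23.7, each overlapping its neighbour's counting interval, then Plin2 with 19.8 and Lipe with 18.9, which also overlapped, and Dgat1 with 7.90. In the TAC library Mgll came first with 47.6 CPM per kilobase, Plin4 had 31.3 and Pnpla2 29.0 with overlapping intervals, and G0s2 and Plin3, also overlapping, had 21.7 and 18.7. Dgat2 had 14.9, Lipe, Dgat1 and Plin5 had 11.9, 11.4 and 10.3 with overlap between neighbours, and Plin2 came last with 5.57. With the longest transcript as the length, Plin2 stood in place 4 instead of 8 in the dioscin library, at 36.8 CPM per kilobase, and still last in the TAC library, at 10.4. In the dioscin library Plin3 then stood in place 8 instead of 5, Plin5 in 7 instead of 4, Lipe in 6 instead of 9, G0s2 in 9 instead of 7, and Mgll, Plin4 and Dgat2 each moved by 1 place. In the TAC library Pnpla2 stood above Plin4 and Dgat2 above Plin3. Pnpla2 in the dioscin library and Mgll in the TAC library stayed first.

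Genome neighbours of the droplet genes had ratios both near to and far from theirs. Plin3, Plin4 and Plin5 lie within 192283 bases of chromosome 17, with 1797 bases between Plin4 and Plin5, whose ratios were 1.97 and 2.63. Cracr2b, 350 bases beyond Pnpla2, had a ratio of 1.07 (0.971 to 1.18). Hsf1, whose 3′ end lies 101 bases from that of Dgat1, had 610 counts in the dioscin library and 860 in the TAC library, a ratio of 0.716 (0.644 to 0.795), close to that of Dgat1. The library kit does not mark strand, and the antisense gene 4732471J01Rik covers 15.6% of the exonic length of Lipe, with a ratio of 1.62 (1.39 to 1.90), so reads of that pair cannot be told apart. Antisense Gm26588 covers 3.29% of Mgll and Hdgfl2 0.294% of Plin4. Stretches of 50 bases shared with other genes made up 2.57% of Plin2, all with the pseudogene Gm12551, and 1.20% of Plin3.

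The 5 lists of genes around the droplet had members past the size rule in unequal numbers. All 5 were chosen with earlier results of these data known. Among other droplet proteins, 5 of the 13 that reached 1 CPM were higher and none was lower, beside 10.5% and 8.77% of all genes, and the median log2 ratio was 0.63. Cidea, which lets droplets fuse and is known from brown fat, had 801 counts in the dioscin library and 272 in the TAC library, 2.97-fold higher (2.59 to 3.42). Fitm2, which parts newly made triglyceride into droplets, had 1880 and 643 counts in the dioscin and the TAC library, 2.95-fold higher (2.70 to 3.23), and the droplet dehydrogenase Hsd17b11 856 and 343, 2.52-fold higher (2.22 to 2.86). Cidec and Plin1, the fusion and coat proteins of white fat cells, had 44 and 18 counts in the dioscin library and 0 in the TAC library. Set against a floor of 3 counts in the TAC library, Cidec was at least 14.8-fold and Plin1 at least 6.05-fold higher. Hsd17b13 was at 0 in both. Cidec and Plin1 had fewer counts than any of the 10 droplet genes. They reached 1 CPM in the dioscin library only, so the filter took them in through the library where they were higher. Both also stand in the adipocyte list below. With a filter of 5 CPM, 3 of the other droplet proteins were higher.

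Among other lipases, cofactors and inhibitors, 4 of the 12 that reached 1 CPM were higher and none lower, beside 10.5% and 8.77% of all genes, with a median log2 ratio of 0.76. Those 4 were Angptl4, Ces1d, Lpl and Gpihbp1. Angptl4, an inhibitor of lipoprotein lipase and a PPAR target, had 1304 counts in the dioscin library and 75 in the TAC library, 17.4-fold higher (13.9 to 22.4). Lpl, the lipase that frees fatty acids from circulating lipoproteins at the vessel wall, had 66799 counts in the dioscin library and 27777 in the TAC library, 2.43-fold higher (2.39 to 2.46). Gpihbp1, which carries Lpl to the capillary surface, had 3840 counts in the dioscin library and 1716 in the TAC library, 2.26-fold higher (2.13 to 2.39). The carboxylesterase gene Ces1d had 1848 and 338 counts in the dioscin and the TAC library, 5.51-fold higher (4.91 to 6.21), with the reservation that related Ces1 genes could share its reads. The lipase inhibitor Hilpda, named after its values were seen, had 38 and 56 counts, a ratio of 0.687 (0.441 to 1.05).

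Of 18 genes at 1 CPM for the steps of synthesis before the DGAT enzymes, 0 were higher and 1 was lower, beside 10.5% and 8.77% of all genes. The list is too short to tell such counts from those shares. The log2 ratio had a median of 0.13. The lower gene was Mogat2, an acyltransferase of monoglyceride, with 7 counts in the dioscin library and 26 in the TAC library, a ratio of 0.286 (0.0995 to 0.643). Mogat2 reached 1 CPM in the TAC library only, so the filter took it in through the library where it was higher. Several abundant members lay under the 2-fold line. Acsl1, which activates long-chain fatty acids, had a ratio of 1.96 (1.87 to 2.05), Gpam, which starts glycerolipid synthesis in mitochondria, 1.85 (1.71 to 2.001), and the glycerol kinase gene Gk 0.508 (0.452 to 0.570). These 3 genes were named after their values were seen. Under the counts as scaled by library totals or upper quartiles, 2 genes of this list were lower.

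Of the 20 textbook PPAR target genes 16 were higher and 0 lower, beside 10.5% and 8.77% of all genes. Of the 8 PPAR factors and coactivators 0 passed the size rule, beside 19.3% of all genes. A list of 8 is too short to tell such a count from that share. The median log2 ratio was 1.39 for the targets and -0.06 for the factors. Ppara had 57 counts in the dioscin library and 77 in the TAC library, a ratio of 0.749 (0.521 to 1.07), and Pparg 429 and 274, a ratio of 1.58 (1.35 to 1.84); both are given as the receptors of muscle and fat and were chosen after their values were seen. Among the higher targets were Pdk4, Acot1, Angptl4, Ucp3 and Acot2. The 4 targets not past the size rule lay on both sides of 1. Acadm had a ratio of 1.76 (1.68 to 1.84) and Ehhadh 1.28 (1.07 to 1.53). Slc22a5 had 0.946 (0.836 to 1.07) and Cpt1b 0.791 (0.668 to 0.934), an interval wholly below 1. Ucp3, a mitochondrial carrier of muscle, was 9.63-fold higher (8.79 to 10.6). The thioesterase genes Acot1 and Acot2, whose close sequences could split reads between them, were 30.9-fold (20.3 to 52.2) and 5.85-fold (4.94 to 7.003) higher. Pdk4, which turns the heart from glucose to fat, was 27.5-fold higher (25.7 to 29.5). The list is a textbook selection made with earlier results of these data known, so its count is not independent of these data. It shares Angptl4 with the lipase list.

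**Figure D4:**
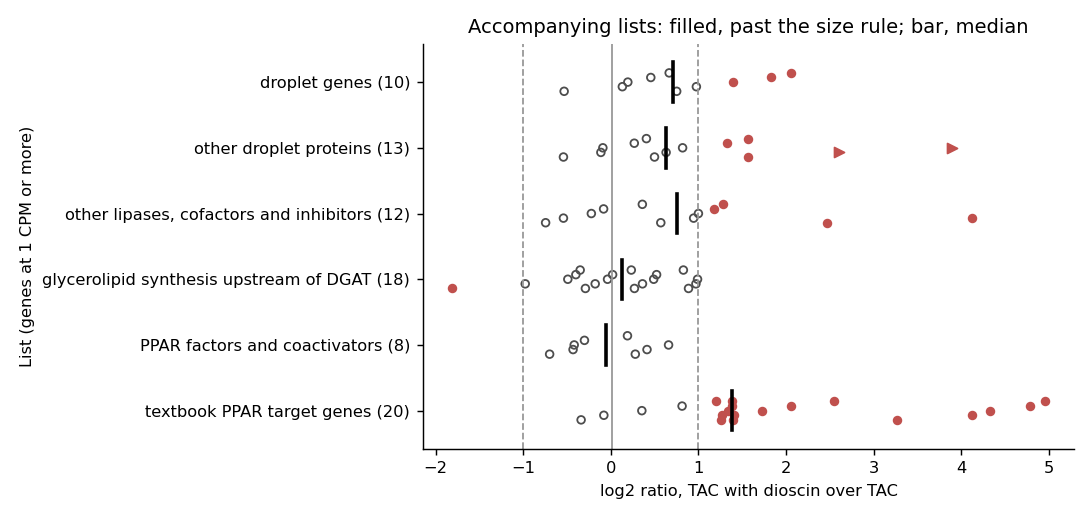
log2 ratio of TAC with dioscin over TAC for the 10 droplet genes and the 5 accompanying lists, 1 point per gene at 1 CPM or more; filled points passed the size rule, triangles are lower bounds against a floor of 3 counts, black bars are medians, and dashed lines mark 2-fold. The PPAR targets have their median at 1.39 and the PPAR factors at -0.06, with the droplet genes between them at 0.71.

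Fat cells express most of the droplet genes, so the fat cell markers are given beside them. Of 9 adipocyte markers, 6 reached 1 CPM and all 6 were higher, where 10.5% of all genes were higher and 8.77% lower. The median log2 ratio of the 6 was 3.53 when genes at 0 in the TAC library were set at their floor bounds (4.68 with the pseudocount). Of the 6, only Thrsp reached 1 CPM in both libraries. The others were taken in through the dioscin library, where they were high, so this count and the median follow in part from the filter. The summed level of the 9 markers was 65.8 CPM in the dioscin library and 15.8 CPM in the TAC library. Plin1, Cidec, Lep and Retn were at 0 in the TAC library, and Lep was at 0 in the dioscin library. Adipoq, the hormone gene that marks fat cells, had 40 counts or 2.34 CPM in the dioscin library and 4 counts or 0.232 CPM in the TAC library. Cfd, the adipsin gene, had 275 counts in the dioscin library and 2 in the TAC library, a ratio of 111 (38.0 to 1151), and Car3, a carbonic anhydrase, 148 and 8, a ratio of 17.6 (9.23 to 44.0). Thrsp, which tissues other than fat also express, made up 34.1 CPM of the sum in the dioscin library and 14.7 CPM in the TAC library. The part of fat cells, of atrial muscle and of mesothelium in the ratios of the droplet genes was not tested.

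**Figure D5:**
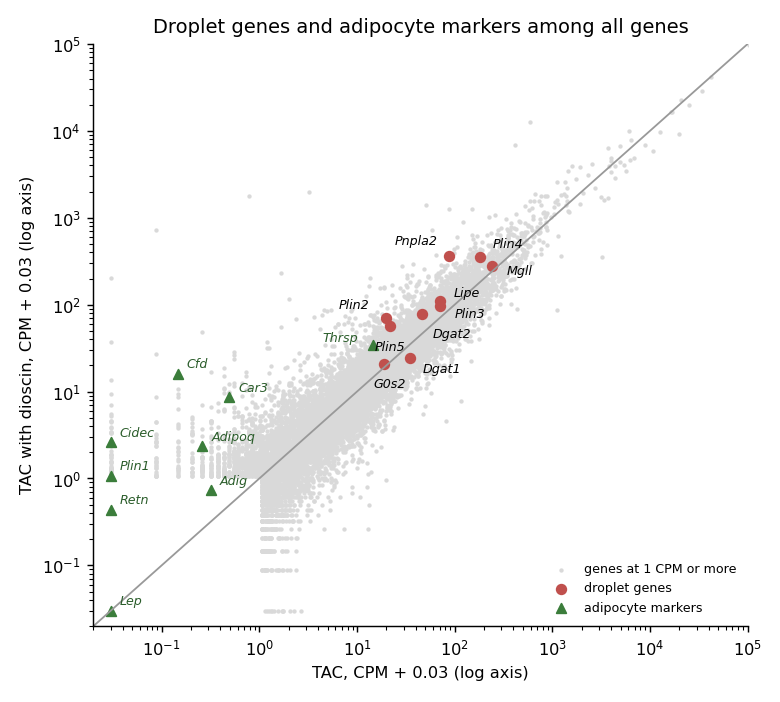
Level of every gene at 1 CPM or more in TAC with dioscin (vertical axis) and TAC (horizontal axis), as CPM plus 0.03 on log axes, with the droplet genes as red circles and the adipocyte markers as green triangles; points above the diagonal are higher with dioscin. The droplet genes lie between 18.9 and 363 CPM, while the adipocyte markers other than Thrsp lie at 16.1 CPM or less in both libraries.

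Markers of other tissues and cells passed the size rule in unequal numbers. Of 4 brown fat markers, Cidea was higher, Cox8b had a ratio of 0.933, Elovl3 had 1 count in the dioscin library, and the defining gene Ucp1 was at 0 in both. Their summed level was 287 CPM in the dioscin library and 273 CPM in the TAC library. Most of it was Cox8b, with 240 CPM in the dioscin library and 258 CPM in the TAC library. Of all genes at 1 CPM, 10.5% were higher and 8.77% lower. Of 5 fibroblast markers 3 were higher (sums 1377 and 435 CPM in the dioscin and the TAC library). Of 5 endothelial markers 2, Vwf and Pecam1, were higher (1308 and 1066 CPM). The others were not past the size rule: Cdh5 had a ratio of 1.01 (0.964 to 1.05), Kdr 0.553 (0.528 to 0.579) and Tie1 0.694 (0.660 to 0.730). Of 7 macrophage markers 1 was higher and 1 lower (134 and 110 CPM). Of 5 skeletal muscle markers 1 reached 1 CPM, Tnnt3, which was neither higher nor lower, and the list summed to 1.40 CPM in the dioscin library and 1.27 CPM in the TAC library. The endothelial list is given because Gpihbp1 is made by capillary cells, and its median log2 ratio was 0.01. The part of these cell types in the ratios of the droplet genes was not tested either.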

How the data were processed

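RNA was measured in 2 libraries of total RNA from mouse heart, 1 for each group, grouped by the treatment label. The authors deposited raw read counts for each gene, made with HISAT2 2.1.0 and HTSeq on build mm10 per the submitters' processing notes. For HTSeq, neither version, annotation release nor strand setting is given in the sources used here. Its 5 lines for reads not assigned to a gene, 71.5% of all lines counted in the dioscin library and 73.8% in the TAC library, were left out.

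Of 55401 identifiers, 55141 matched GENCODE M21 (GRCm38) without their version number; 9 of the 10 droplet genes matched with it. Counts were scaled with TMM factors (edgeR 4.0.16, R 4.3.3). Ratios are dioscin over TAC with a pseudocount of 0.5 on both counts, and exact 95% Clopper-Pearson intervals of the counts, computed over the whole table with scipy 1.17.1 and tested on simulated data. DESeq2 1.42.0 size factors were an alternative. A level per kilobase is CPM over the union of annotated exons. Intervals and floors (3 counts, 0.175 CPM in the dioscin library and 0.174 CPM in the TAC library) cover counting error only. Each group had 1 library, so the spread between mice is not in them. PCR copies were not told apart, so the intervals can be too narrow even for counting error. Promoters are from RefSeq (GRCm38.p6); protein sequences were not used here.

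The genes, the 5 accompanying lists and the 10 marker lists (adipocyte, atrial muscle, mesothelium, heart muscle cell, brown fat, macrophage, endothelium, fibroblast, liver and skeletal muscle) were chosen with earlier results of these data known. All 10 droplet genes are named, and from each accompanying list up to 6 genes past the size rule, taken by the interval limit nearest to 1; 1 gene so chosen is not reported here. Over 2 libraries a pattern is a single ratio, so no gene is named for a likeness of pattern.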

Additional observations from a re-analysis of the deposited data

How the results depend on the processing

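Scaling by totals of gene counts, DESeq2 size factors, upper quartiles or TMM without genes of the mitochondrial genome, no filter, a 5 CPM filter and a pseudocount of 2 each left 3 droplet genes higher and 0 lower. The median log2 ratio lay between 0.63 and 0.71 under them. With a fold of 1.5, 6 droplet genes were higher, against 20.3% of all genes, and with a fold of 3, 2 were, against 4.98%; 38.2% and 8.50% of all genes then passed in either direction. Plin4, next to the line, had a log2 ratio between 0.89 and 0.98 under the scalings and pseudocounts tried. Among the accompanying lists, a fold of 1.5 gave 4 genes of upstream synthesis higher and 2 lower, and 1 PPAR factor or coactivator higher and 1 lower. A fold of 3 left 2 other droplet proteins, 2 other lipases and 8 PPAR targets higher. The 5 CPM filter left 3 other droplet proteins higher and 0 genes of upstream synthesis lower, since it takes fewer genes in. Totals and upper quartiles each gave 2 lower there. Levels per kilobase moved with the choice of length, and that of Plin2 in the dioscin library was 19.8 CPM over all exons and 36.8 CPM over the longest transcript. No paired analysis was possible because each group had 1 library, and for the same reason no library could be left out. Depth does not limit the droplet genes, which had at least 326 counts in each library, whereas the fat cell genes Plin1, Cidec and Adipoq rest on 44 counts or fewer, unlike Cfd with 275 counts in the dioscin library.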

Other observations

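Macrophages laden with lipid express Gpnmb, a membrane glycoprotein, and Trem2, a lipid receptor. Gpnmb had 112 counts in the dioscin library and 9 in the TAC library, 11.9-fold higher (6.38 to 28.2), whereas Trem2 had 65 and 67 counts, a ratio of 0.979 (0.685 to 1.40). The general macrophage gene Cd68 had 156 counts in each library, and Fcgr1, an antibody receptor of inflammatory macrophages, was 2.24-fold lower (1.54 to 3.36), with 40 counts in the dioscin library and 91 in the TAC library. These 4 genes were chosen after their values were seen. Gpnmb reached 1 CPM in the dioscin library only, so the filter took it in through the library where it was higher. Which cells made its transcript was not tested.

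The liver markers Alb, Apoa1 and Ttr had 26, 19 and 35 counts in the dioscin library and 0 each in the TAC library, at least 8.74-fold, 6.39-fold and 11.8-fold higher against a floor of 3 counts. Their summed level was 4.67 CPM in the dioscin library. All 3 reached 1 CPM in the dioscin library only, so the filter took them in through the library where they were higher. Of all genes at 1 CPM, 10.5% were higher and 8.77% lower.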
